A study of Homo sapiens with 6 samples.

Results

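The 10 imprinted genes described here in an ovarian cancer cell line were CPA4, MEST, H19, PEG3, PEG10, SGCE, PLAGL1, NNAT, MEG3 and DLK1. A gene was taken where its symbol in the table of read counts was one of these names, and 8 of the 10 genes had a row among 34811 genes. PEG3, a zinc finger gene, and DLK1, which encodes a membrane protein with EGF-like repeats, were not analysed here. The names were chosen by their measured differences in counts between the 2 conditions, so the difference of each of these genes is given as a description, with no test.

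OVCAR-3, a human epithelial ovarian cancer line, was stably transfected with a pRS shRNA HuSH-29 plasmid and selected with puromycin. OV3/SCR cells carried a scrambled shRNA and OV3/COX1KD cells carried an shRNA against COX-1, the prostaglandin synthase encoded by PTGS1. RNA-seq was performed on 3 independent passages of each, to see how expression differs when COX-1 is down-regulated. The RNA-seq used clone #2 of OV3/COX1KD and clone #1 of OV3/SCR, so the knockdown and the choice of clone cannot be told apart, and the spread given is that between passages of 1 clone.

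An imprinted gene is transcribed mainly from the copy inherited from one parent, and the choice is held by DNA methylation laid down in the germ line. Imprinted genes lie in clusters in which one methylated control region can govern several coding and noncoding genes, and many of them act on growth of the fetus and placenta. Loss or gain of imprinting is common in tumors. Gene counts do not part the parental copies, so each value below is the sum of both.

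PTGS1 had 713, 658 and 641 counts in OV3/SCR and 456, 486 and 501 in OV3/COX1KD. It fell by 0.45 on the log2 scale (SE 0.057, FDR 1.3e-06), from 25.6 ± 1.02 to 18.7 ± 0.638 CPM (SD, n = 3). CPM are counts relative to the library total after TMM scaling. Library totals lay between 25291505 and 27391538 counts, and 3 counts corresponded to 0.112 to 0.12 CPM. Over all 17309 genes tested, 25.8% were higher and 22.1% lower in OV3/COX1KD at an FDR under 0.01, so higher genes made up 53.9% of the calls, against 41.1% with scaling by total count, which moved the median log2 fold change from -0.0087 to -0.086. All 12 ovarian epithelial markers listed, PAX8 and MUC16 among them, passed the filter on low counts, and 9 were higher and 3 lower. Their summed counts were 130254 to 135262 in OV3/SCR and 165638 to 174366 in OV3/COX1KD. The 11 blood, vessel and stromal markers with a row summed to 123 to 141 counts in OV3/SCR and 143 to 146 in OV3/COX1KD. PTPRC had 2 to 8 counts and LUM 0 or 1, while VWF at 25 to 52 and FAP at 39 to 52 were the highest. Of the 11 markers, 5 were tested, with 0 calls by edgeR, 0 by DESeq2 and 0 at an unadjusted p under 0.05.

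The promoters of CPA4, MEST, PLAGL1 and H19 are shown because their CG-richest windows span low to high CG content, the substrate of DNA methylation. Each is a RefSeq window of 300 bases on GRCh38.p14, from 250 bases before a transcript start to 50 after it, written 5′ to 3′ on the gene's strand. Where a gene had several windows, the one richest in CG is given. In the CPA4 window, at chr7:130292911-130293210 on the plus strand, capitals mark both matches to the AP-1 letters TGACTCA or its reverse complement TGAGTCA. In the MEST window, at chr7:130491835-130492134 on the plus strand, the PLAGL1 window, at chr6:144008210-144008509 on the minus strand, and the H19 window, at chr11:2001217-2001516 on the minus strand, capitals mark CG dinucleotides.
CPA4: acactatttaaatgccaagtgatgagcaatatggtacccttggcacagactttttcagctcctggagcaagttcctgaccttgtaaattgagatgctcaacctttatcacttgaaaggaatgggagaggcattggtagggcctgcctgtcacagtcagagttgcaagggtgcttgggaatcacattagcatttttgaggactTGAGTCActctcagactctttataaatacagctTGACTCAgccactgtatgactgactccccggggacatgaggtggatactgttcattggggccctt
MEST: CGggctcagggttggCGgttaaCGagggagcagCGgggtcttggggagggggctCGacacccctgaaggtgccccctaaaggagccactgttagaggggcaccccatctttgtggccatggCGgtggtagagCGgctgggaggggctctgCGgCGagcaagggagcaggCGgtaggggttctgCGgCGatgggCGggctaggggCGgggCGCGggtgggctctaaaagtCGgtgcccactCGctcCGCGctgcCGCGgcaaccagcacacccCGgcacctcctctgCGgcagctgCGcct
PLAGL1: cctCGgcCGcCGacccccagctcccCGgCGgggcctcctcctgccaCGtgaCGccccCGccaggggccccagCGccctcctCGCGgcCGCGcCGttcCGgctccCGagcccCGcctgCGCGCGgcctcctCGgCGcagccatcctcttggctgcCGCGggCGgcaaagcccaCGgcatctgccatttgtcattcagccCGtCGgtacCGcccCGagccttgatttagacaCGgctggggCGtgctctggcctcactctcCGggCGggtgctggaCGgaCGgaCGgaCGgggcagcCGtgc
H19: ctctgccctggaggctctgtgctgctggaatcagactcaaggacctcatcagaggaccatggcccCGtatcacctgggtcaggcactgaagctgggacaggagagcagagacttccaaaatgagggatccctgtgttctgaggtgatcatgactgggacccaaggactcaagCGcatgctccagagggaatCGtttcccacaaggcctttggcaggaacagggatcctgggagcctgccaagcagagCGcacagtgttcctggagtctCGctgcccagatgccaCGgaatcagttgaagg

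The CPA4 window held 1 CG, and 3.96% of the 35116 RefSeq windows held fewer. The H19 window held 6 CG, more than 33.7% of windows. The MEST window held 25 and the PLAGL1 window 39, more than 68% and 91.3% of windows, where the median window held 14. The other windows of MEST held 13 or more, whereas those of PLAGL1 went down to 2. The AP-1 matches of CPA4 began 48 and 15 bases before the start. Another PLAGL1 window, not printed here, held 1 AP-1 match, 178 bases before its start. Windows with at least 1 such match made up 4.95% of all windows, and those with at least 2 made up 0.222%, or 78 windows. TATAAA or its reverse complement TTTATA also occurred in the CPA4 window, at 30 and 28 bases before the start, where the matches overlap each other. Windows of MEG3 and the other PLAGL1 window held these letters too, as did 11.5% of all windows. The palindrome GGGGCCCC occurred 1 time in the PLAGL1 window and in 1.95% of windows. These letters were chosen after the sequences were seen, and a match is a string of bases, not a measured site.

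**Figure D1:**
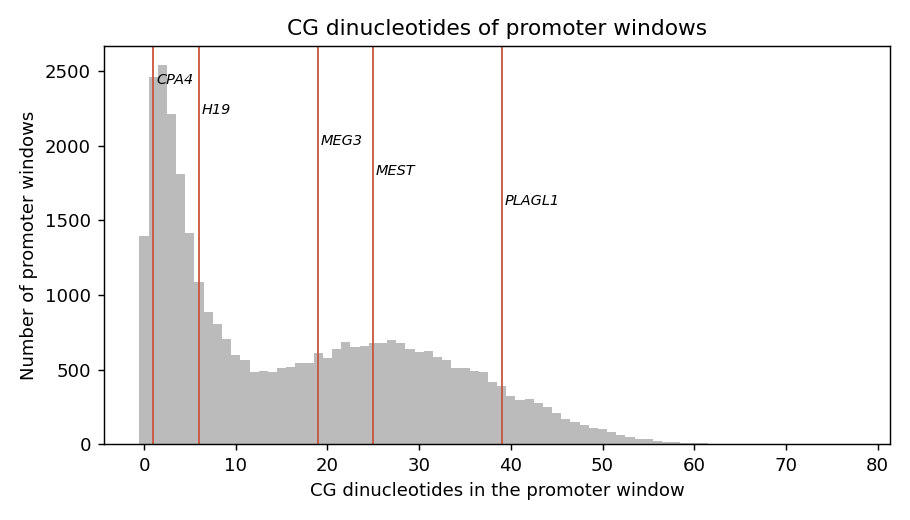
Number of RefSeq promoter windows (vertical axis) by the number of CG dinucleotides in the window of 300 bases (horizontal axis), with red lines at the CG-richest window of each of the 5 genes that had one. CPA4 sits at 1 and H19 at 6, below the median of 14, and MEG3 at 19, MEST at 25 and PLAGL1 at 39 sit above it.

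Of the 8 genes with a row, 7 passed the filter on low counts. In these, no OV3/COX1KD library overlapped an OV3/SCR library, with 4 genes higher and 3 lower in OV3/COX1KD. Over all tested genes, the conditions did not overlap in 63.2%, with 32.5% higher and 30.7% lower in OV3/COX1KD. These values were used to choose the genes, so nothing is read from the counts beside these shares. Only CPA4 and PLAGL1 differed by more than 2.5-fold, both lower, and 0 were higher by that much, where 3.92% of all tested genes were called with that fold, 2.34% lower and 1.58% higher. The log2 fold changes ran from -3.55 for CPA4 to 1.09 for PEG10. Each of the 7 kept its sign under every scaling, filter and left-out library tried. Genes chosen by such differences, with the conditions apart, could hardly change sign, so this adds no support.

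**Figure D2:**
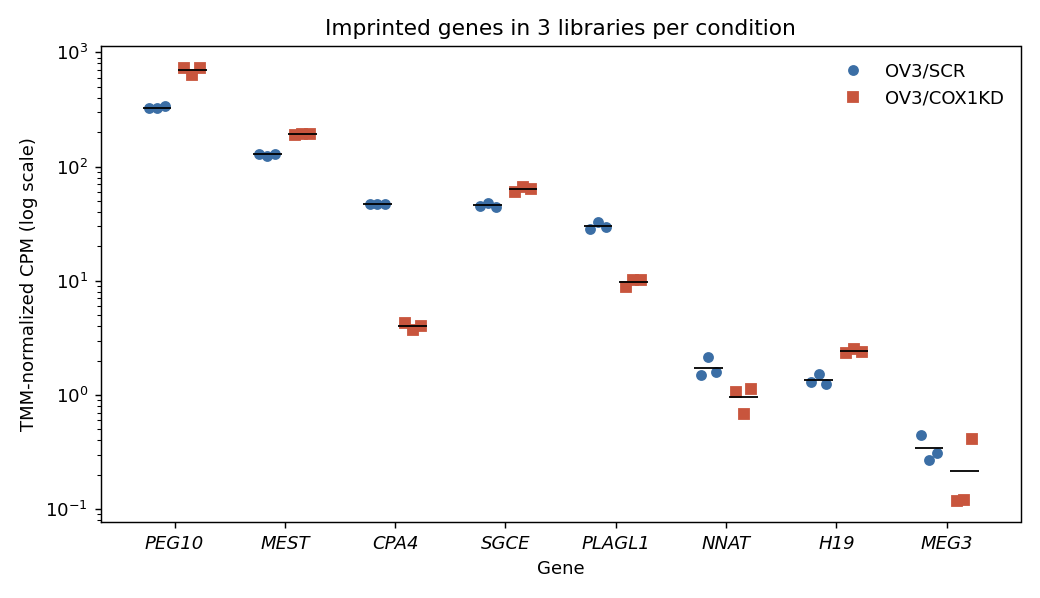
TMM-normalized CPM on a log axis for the 8 measured imprinted genes, with 1 point per library and a bar at the mean of the 3 libraries of each condition. CPA4 drops from about 47 to 4.01 CPM, PEG10 is the most abundant at 328 and 698 CPM, and MEG3 is the only one in which the conditions overlap.

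CPA4 and MEST are neighbours on chromosome 7, 162 kb apart, and they differed in opposite directions. CPA4 (ENSG00000128510, GRCh37 chr7:129932974-129964020, plus strand) encodes a secreted carboxypeptidase that removes residues from the C-terminus of peptides. It had 1252, 1219 and 1229 counts in OV3/SCR, and 108, 93 and 108 in OV3/COX1KD. The 3 libraries of a condition lay close together, and those of OV3/COX1KD all lay far below those of OV3/SCR. The mean CPM was 47 ± 0.397 in OV3/SCR and 4.01 ± 0.291 in OV3/COX1KD (SD, n = 3), so 8.53% of the OV3/SCR level was left, an 11.7-fold difference (log2 fold change -3.55, SE 0.067).

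MEST (ENSG00000106484, chr7:130126012-130146306, plus strand) encodes a membrane protein of the alpha/beta hydrolase family and is expressed from the paternal copy. Its counts were 3454, 3232 and 3361 in OV3/SCR, and 4763, 4866 and 5110 in OV3/COX1KD. All OV3/COX1KD libraries were the higher ones. The mean was 128 ± 3.33 CPM in OV3/SCR and 191 ± 2.46 CPM in OV3/COX1KD (SD, n = 3), a ratio of 1.5 (log2 fold change 0.58, SE 0.032), or 0.51 on the log2 scale with scaling by total count. Part of its exon sequence is shared with other genes, 4.78% with the antisense gene COPG2, 10.2% with MESTIT1 and 12.6% with ENSG00000270823. The kit does not mark strand, so reads in those bases cannot be assigned to one gene.

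The genes around this pair differed in direction and size. COPG2, which encodes a coatomer subunit and overlaps MEST tail to tail, rose by 0.57 on the log2 scale (SE 0.058, FDR 6.5e-08). Its counts went from 461, 489 and 493 to 682, 660 and 760. MEST covers 13.2% of the exon bases of COPG2, so reads there cannot be assigned to 1 gene. What such reads add to the rise of COPG2 was not tested. CEP41, a centrosomal protein gene that lies between CPA4 and MEST, had a log2 fold change of 0.15 (SE 0.065, FDR 0.0598). CPA5 and CPA1, also between them, had 0 to 2 counts per library. Beyond MEST, the lncRNA AC058791.2, 329.7 kb away, fell by 0.44 on the log2 scale (SE 0.13, FDR 0.00498). Of the 14 tested genes within 1 Mb of CPA4, other than MEST, 4 rose (28.6%) and 2 fell (14.3%). Their median log2 fold change was 0.068. Over all tested genes, 25.8% rose and 22.1% fell, and a difference from these shares was not tested.

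PEG10 and SGCE lie head to head on chromosome 7, their gene bodies overlapping by 248 bp, and both were higher in OV3/COX1KD. PEG10 (ENSG00000242265, chr7:94285637-94299007, plus strand) is derived from a retrotransposon and is needed for the placenta. Its counts were 8618, 8473 and 8745 in OV3/SCR, and 18555, 15773 and 19440 in OV3/COX1KD. OV3/COX1KD replicate 2 was the lowest of its condition, still well above every OV3/SCR library. The mean was 328 ± 8.16 CPM in OV3/SCR and 698 ± 60.1 CPM in OV3/COX1KD (SD, n = 3), a ratio of 2.12 (log2 fold change 1.09, SE 0.045).

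SGCE (ENSG00000127990, chr7:94153516-94285884, minus strand) encodes epsilon-sarcoglycan, a membrane glycoprotein of the dystrophin-associated complex, and its loss causes myoclonus-dystonia. It had 1213, 1247 and 1151 counts in OV3/SCR, and 1499, 1662 and 1699 in OV3/COX1KD. The conditions did not overlap, though the gap was the smallest of the 4 higher genes in relative terms. The mean went from 45.9 ± 1.71 to 63.1 ± 3.41 CPM (SD, n = 3), a ratio of 1.38 (log2 fold change 0.46, SE 0.046), or 0.38 on the log2 scale with scaling by total count. The genes share 3.27% of the exon bases of PEG10 and 1.05% of those of SGCE.

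The nearest neighbours of SGCE and PEG10 had smaller differences than PEG10. CASD1, whose body overlaps that of SGCE and which encodes a sialic acid acetyltransferase, had a log2 fold change of -0.078 (SE 0.046, FDR 0.155). PPP1R9A, the neurabin gene 238 kb beyond PEG10, rose by 0.40 (SE 0.058, FDR 6.4e-06). COL1A2, a collagen gene 93 kb before SGCE, had a log2 fold change of -0.51 (SE 0.41) with no call at an FDR of 0.306. Farther off, GNG11, a G protein subunit gene 728 kb from PEG10 that was picked after its values were seen, fell from 114, 124 and 106 counts to 13, 22 and 19 (log2 fold change -2.63, SE 0.19, FDR 4.6e-10). Next to it TFPI2, a protease inhibitor gene that is itself imprinted, had 1128, 1146 and 1041 counts in OV3/SCR and 100, 91 and 103 in OV3/COX1KD. TFPI2 fell from 42.1 ± 1.86 to 3.82 ± 0.175 CPM (log2 fold change -3.46, SE 0.072, FDR 5.1e-18), a level and a difference close to those of CPA4.

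**Figure D3:**
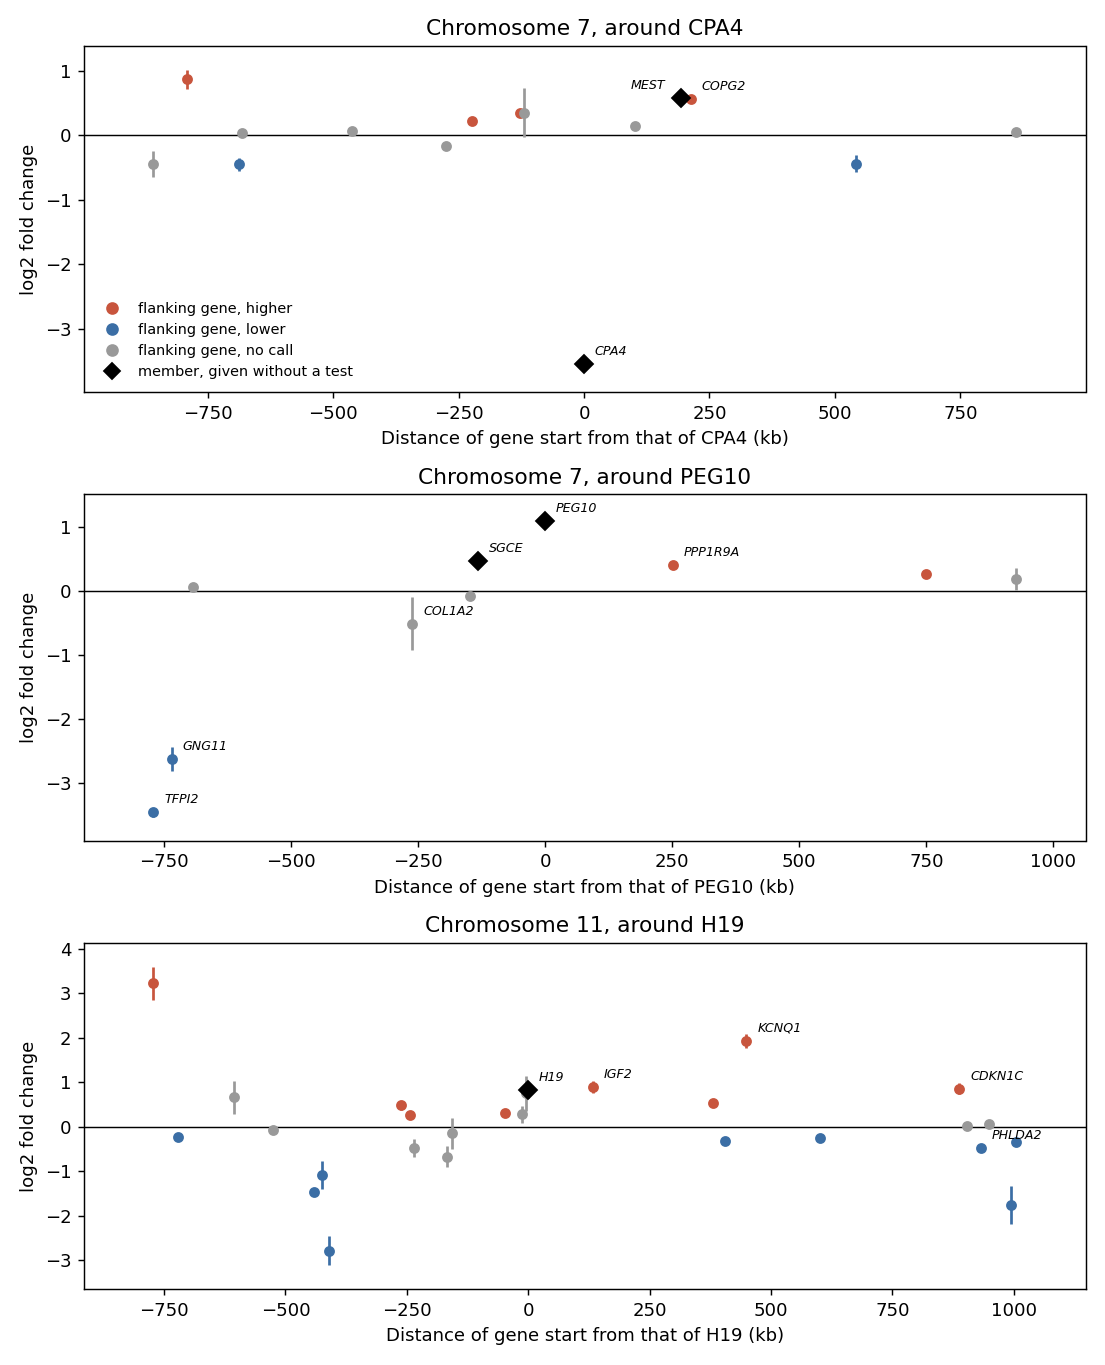
log2 fold change of OV3/COX1KD over OV3/SCR (vertical axis, bars are standard errors, some hidden by the symbol) against the distance in kb between gene starts, around CPA4, PEG10 and H19. Diamonds are the imprinted genes given without a test and circles are flanking genes, red or blue where called at an FDR under 0.01, with 1 flanking gene of CPA4 not plotted. CPA4 at -3.55 is the lowest gene plotted in its region and MEST lies at 0.58, and TFPI2 and GNG11 at -3.46 and -2.63 lie in the same region as PEG10 at 1.09.

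PLAGL1 (ENSG00000118495, chr6:144261437-144385736, minus strand) encodes a zinc finger transcription factor that can arrest the cell cycle and is expressed from the paternal copy. It had 767, 850 and 771 counts in OV3/SCR, and 223, 257 and 273 in OV3/COX1KD. Every OV3/COX1KD library was well below every OV3/SCR library. The mean was 30.4 ± 1.99 CPM in OV3/SCR and 9.77 ± 0.802 CPM in OV3/COX1KD (SD, n = 3), a 3.11-fold difference (log2 fold change -1.63, SE 0.071). The noncoding gene HYMAI on the same strand covers 4.51% of its exon bases. The nearest tested gene before it, LTV1, a ribosome assembly factor gene, fell by 0.34 (SE 0.041, FDR 7.4e-07), and SF3B5, a splicing factor gene 30.3 kb on the other side, had a log2 fold change of 0.088 with no call (SE 0.04, FDR 0.0656).

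H19 (ENSG00000130600, chr11:2016396-2025782, minus strand), a long noncoding RNA from the maternal copy and the host of a microRNA, was low in both conditions. Its counts were 35, 40 and 32 in OV3/SCR, and 59, 63 and 64 in OV3/COX1KD. The conditions were apart, at 1.36 ± 0.154 and 2.42 ± 0.0862 CPM (SD, n = 3), a ratio of 1.78 (log2 fold change 0.83, SE 0.18). IGF2, the fetal growth factor gene that shares a control region with H19 and is normally read from the other parental copy, had 53, 68 and 62 counts in OV3/SCR and 115, 107 and 113 in OV3/COX1KD. IGF2 rose by 0.90 (SE 0.14, FDR 1.6e-05), so both genes of the pair were higher. The same-strand gene ENSG00000284779 covers 37.9% of the exon bases of IGF2 and the readthrough gene INS-IGF2 20.4%, and none of those of H19 are shared. On the other side, 1.5 kb away, AC051649.6 had a log2 fold change of 0.75 with no call (SE 0.4, FDR 0.114).

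The second control region of that cluster, around KCNQ1, showed both directions. KCNQ1, a potassium channel gene, rose from 30, 37 and 35 counts to 118, 140 and 124, or from 1.3 to 4.97 CPM (log2 fold change 1.93, SE 0.16, FDR 2.6e-09). CDKN1C, the gene of the cell cycle inhibitor p57, rose from 82, 80 and 94 counts to 147, 141 and 166 (log2 fold change 0.86, SE 0.12, FDR 4.6e-06). KCNQ1OT1, the antisense RNA that silences genes of this domain on the paternal copy, fell by 0.26 (SE 0.047, FDR 8.4e-05), from 1347, 1299 and 1287 counts to 1034, 1121 and 1056. PHLDA2, a brake on placental growth, fell by 0.48 (SE 0.057, FDR 5.7e-07). The exons of KCNQ1OT1 cover 2.72% of those of KCNQ1, and without strand these reads cannot be told apart. Of the 26 tested genes within 1 Mb of H19, 8 rose (30.8%, beside 25.8% of all tested genes) and 9 fell (34.6%, beside 22.1%). Whether they differ from other genes was not tested.

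NNAT and MEG3 were the least abundant of the 8 genes together with H19. NNAT (ENSG00000053438, chr20:36149608-36152092, plus strand), the gene of a small membrane proteolipid of the developing brain, had 40, 56 and 41 counts in OV3/SCR and 27, 17 and 30 in OV3/COX1KD. The conditions did not overlap, but the highest OV3/COX1KD library and the lowest OV3/SCR library lay close, at 1.12 and 1.5 CPM. The means were 1.74 ± 0.352 and 0.958 ± 0.244 CPM (SD, n = 3), 1.82-fold lower in OV3/COX1KD (log2 fold change -0.85, SE 0.24). BLCAP, in an intron of which NNAT lies and which is imprinted in brain, rose by 0.27 (SE 0.04, FDR 1.1e-05) and shares 6.4% of the exon bases of NNAT. SRC, the kinase gene 115 kb before NNAT, rose by 0.21 (SE 0.043, FDR 3.0e-04), and CTNNBL1, a splicing-associated gene, had a log2 fold change of -0.03 with no call (SE 0.041, FDR 0.556).

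MEG3 (ENSG00000214548, chr14:101245747-101327368, plus strand) is a long noncoding RNA of the cluster that also holds DLK1. It had 12, 7 and 8 counts in OV3/SCR and 3, 3 and 11 in OV3/COX1KD, did not pass the filter and gets no fold change. OV3/COX1KD replicate 3 was above the lower OV3/SCR libraries, and 2 of the OV3/COX1KD libraries were at the limit of 3 counts, so a difference was not detectable at this depth. Its cluster neighbours RTL1 and MEG8 had 0 to 2 and 1 to 8 counts per library. BEGAIN, 192 kb before MEG3, had a log2 fold change of -0.002 (SE 0.24, FDR 0.995), and RP11-796G6.1, 817 kb after it, one of 0.83 (SE 0.34, FDR 0.0425), neither called. USP29 and ZIM2, which neighbour PEG3, had at most 3 counts in any library.

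Per kilobase of the canonical transcript, the OV3/SCR levels ran from PEG10 at 127 CPM per kb through MEST at 48.3, SGCE at 24.6, CPA4 at 16.9, PLAGL1 at 9.29, NNAT at 1.38 and H19 at 1.23 to MEG3 at 0.542. Only NNAT and H19 overlapped between libraries in that order. In OV3/COX1KD, CPA4, at 1.44 CPM per kb, lay below PLAGL1 at 2.99 and H19 at 2.19, and NNAT at 0.761 overlapped MEG3 at 0.343. The order depends on the length used. Over the union of all exons of a gene, SGCE had 2.2 CPM per kb in OV3/SCR, below CPA4 at 11.9 and PLAGL1 at 4.74. By that length CPA4 in OV3/COX1KD, at 1.01 CPM per kb, was below PLAGL1 at 1.52 but above H19 at 0.698. The coefficient of variation within OV3/SCR ran from 0.843% for CPA4 to 27.8% for MEG3. Within OV3/COX1KD it was 1.29% for MEST, 3.57% for H19, 5.4% for SGCE, 7.26% for CPA4, 8.2% for PLAGL1, 8.61% for PEG10, 25.5% for NNAT and 78% for MEG3.

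Across the 6 libraries, the log2 CPM profile of CPA4 was most like those of SPOCK2, PLEKHS1 and RHOB (Pearson's r 0.9998 each, among 13007 genes compared), and that of MEST most like those of MTCH2, RPL23A and IFT74 (0.9998 or more). The gap between 2 tight clusters of 3 libraries sets these values, and 524 genes had an r over 0.99 with CPA4 and 768 with MEST.

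Other imprinted genes moved in both directions. Of 77 listed, 58 had a row and 44 were tested, of which 21 rose (47.7%) and 10 fell (22.7%), beside 25.8% and 22.1% over all tested genes. Together 70.5% were called, against 47.9% of all tested genes, a difference that was not tested. Their median log2 fold change was 0.14, against -0.0087 over all tested genes. FAM50B rose by 0.89 (SE 0.18, FDR 3.4e-04), after KCNQ1 and IGF2 the third of the list. LRRTM1, a neuronal leucine-rich repeat gene, fell from 381, 413 and 404 counts to 208, 201 and 224 (log2 fold change -0.89, SE 0.076, FDR 5.0e-09). ATP10A, a phospholipid transporter gene, fell by 0.60 (SE 0.17, FDR 0.0064), a call that was lost with DESeq2. TFPI2 and KCNQ1 were the only 2 with a call and a difference above 2.5-fold. Around the measured members, of the 95 tested flanking genes, each counted once, 25 rose (26.3%) and 24 fell (25.3%, 33 genes with scaling by total count), with a median log2 fold change of -0.002.

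**Figure D4:**
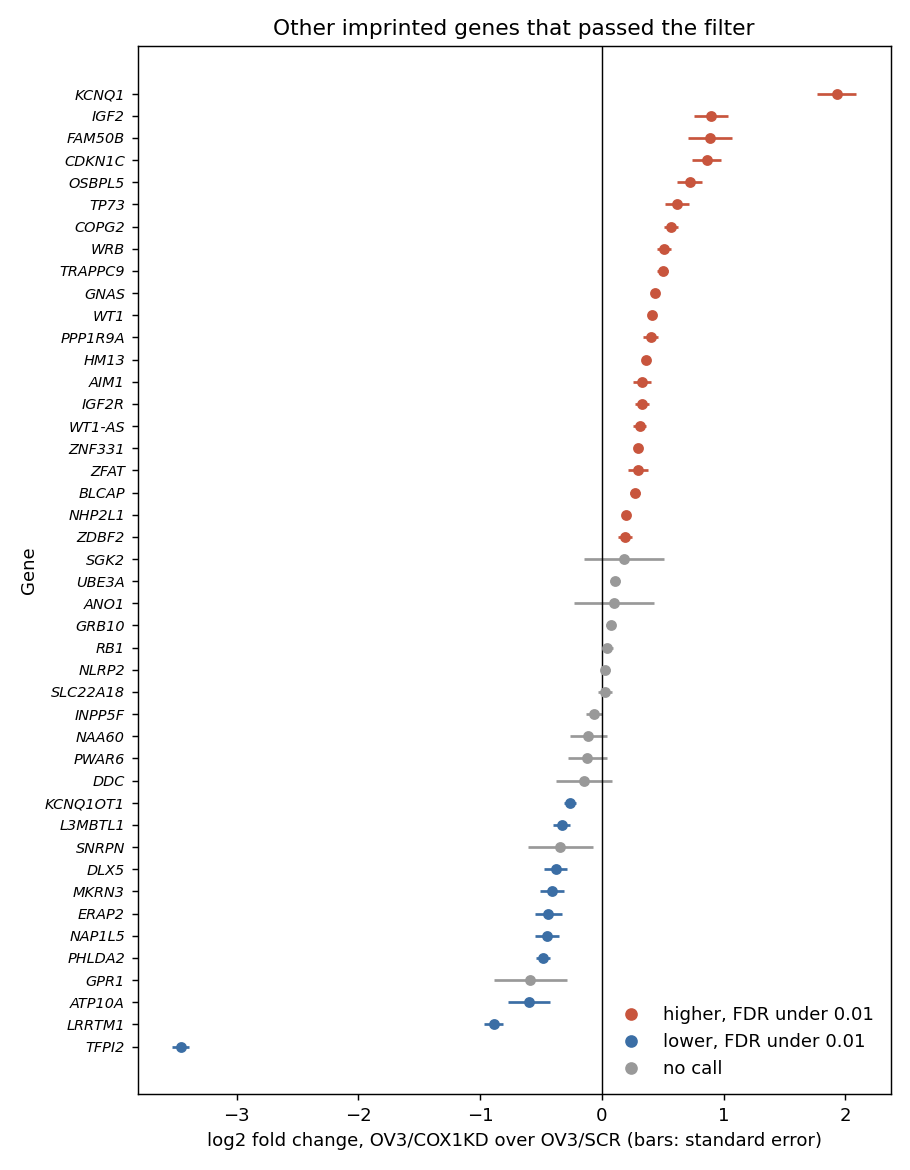
log2 fold change (OV3/COX1KD over OV3/SCR, horizontal axis, bars are standard errors) of the 44 other imprinted genes that passed the filter, ordered by size, with 21 higher in red, 10 lower in blue and 13 without a call in gray. KCNQ1 at 1.93 and TFPI2 at -3.46 stand at the ends, and all other values lie within 1 of 0.

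Listed regulators of imprinting had log2 fold changes of at most 0.62 in size where called. Their products set, keep or oxidize methylation, or act at imprinted loci in other ways. Of 25 listed, 18 were tested, and 2 rose (11.1%, beside 25.8% of all tested genes) and 4 fell (22.2%, beside 22.1%), with a median log2 fold change of -0.047. DNMT1, the maintenance methyltransferase, fell by 0.34 (SE 0.031, FDR 1.4e-08), and UHRF1, which brings it to hemimethylated DNA, fell by 0.48 (SE 0.041, FDR 4.3e-09). DNMT3B, a de novo methyltransferase, fell by 0.22 (SE 0.045, FDR 2.8e-04). Of the dioxygenases that oxidize methylcytosine, TET1 rose by 0.62 (SE 0.062, FDR 4.7e-08), TET2 rose by 0.22 (SE 0.05, FDR 6.6e-04) and TET3 fell by 0.20 (SE 0.056, FDR 0.00398). The call of TET2 was lost with scaling by total count (FDR 0.014), under which 1 gene of the list rose and 9 fell. CTCF, which binds the unmethylated control region of H19 and IGF2, had a log2 fold change of 0.036 with no call (FDR 0.392). Methylation itself was not measured.

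Carboxypeptidases of several families and their inhibitors, not all of them related to CPA4, moved in both directions. Of 20 listed, 10 were tested, and 6 rose (60.0%, beside 25.8% of all tested genes) and 2 fell (20%, beside 22.1%), with a median log2 fold change of 0.65. Whether the list differs from other genes was not tested. CPM, a membrane-bound metallocarboxypeptidase, rose from 265 ± 8.96 to 1082 ± 41.8 CPM (log2 fold change 2.03, SE 0.034, FDR 3.9e-19). CPQ, a plasma enzyme of another peptidase family than CPA4, rose from 110, 100 and 120 counts to 496, 516 and 542 (log2 fold change 2.27, SE 0.083, FDR 1.6e-14). CPVL, a serine carboxypeptidase, rose by 1.09 (SE 0.051, FDR 5.6e-13), and RARRES1, related to the inhibitor latexin, by 1.00 (SE 0.22, FDR 6.6e-04). CPA6, of the same A/B subfamily as CPA4, fell from 345, 329 and 330 counts to 56, 56 and 70 (log2 fold change -2.43, SE 0.1, FDR 1.3e-13), and AEBP1 fell by 1.39 (SE 0.2, FDR 4.6e-06). With scaling by total count 4 of the list fell.

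Most of the called partners of SGCE in the dystrophin-associated complex were higher in OV3/COX1KD. Of 14 listed, 11 were tested, and 8 rose (72.7%, beside 25.8% of all tested genes) and 1 fell (9.09%, beside 22.1%), with a median log2 fold change of 0.44. Whether the list differs from other genes was not tested. SGCD, encoding delta-sarcoglycan, rose from 27, 26 and 33 counts to 89, 99 and 138 (log2 fold change 1.95, SE 0.19, FDR 3.6e-08). The syntrophin gene SNTB1 rose by 0.98 (SE 0.038, FDR 3.2e-14), and SSPN, encoding sarcospan, by 0.91 (SE 0.11, FDR 4.7e-07). DMD, the dystrophin gene, fell from 163, 159 and 150 counts to 74, 61 and 61 (log2 fold change -1.23, SE 0.13, FDR 7.5e-08).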

How the data were processed

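RNA-seq libraries of OV3/SCR and OV3/COX1KD cells (TruSeq RNA kit) were aligned by the authors to hg19 with TopHat2 2.0 and counted per gene with HTSeq, and raw counts were deposited without normalization. The annotation and the strand setting are not given in the sources used here. With edgeR 4.0.16 in R 4.3.3, counts were scaled by TMM, filterByExpr kept 17309 of 34811 genes, and the conditions were compared by glmQLFit and glmQLFTest without covariates. FDR is the Benjamini-Hochberg value over every gene kept. The standard error was the log2 fold change divided by the square root of F. Calls used an FDR under 0.01, as in the study's methods, and where stated a fold above 2.5. The fitted biological coefficient of variation was 3.21%. p-values measure the spread between passages of 1 clone per condition.

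Members and lists were chosen with earlier results of these data known. Named genes were all members, PTGS1, up to 4 called genes per list and direction with the largest difference, the nearest tested gene on each side of a member, cluster neighbours at the floor, and the 3 genes most like CPA4 and MEST. Some genes that this rule takes are not reported here. The others named in passing (KCNQ1OT1, CTCF, GNG11, COPG2, BLCAP) fall outside these or overlap a member, and were chosen after values were seen. Coordinates and exon overlaps came from GENCODE 44 lifted to GRCh37, in which 33556 genes had an entry. Whether the authors' counting held all the overlapping genes is not known. Promoter windows were RefSeq's and matched 5 of the 8 members. The alternatives were DESeq2 1.42.0, scaling by total count or by RLE, a minimum of 10 counts per library or no minimum, the replicate number as a block, each library left out, and a flank of 500 kb in place of 1 Mb. The scripts were tested on simulated data.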

Additional observations from a re-analysis of the deposited data

How the results depend on the processing

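Every direction of the 7 members that passed the filter held under each alternative. A kept direction adds no support, since the members were chosen by these differences and their conditions did not overlap. Log2 fold changes were -3.63 to -3.49 for CPA4, -1.71 to -1.57 for PLAGL1 and -0.99 to -0.66 for NNAT. They were 0.51 to 0.61 for MEST, 0.75 to 0.92 for H19, 1.01 to 1.16 for PEG10 and 0.38 to 0.5 for SGCE. The same-numbered libraries did not deviate together (correlations 0.0022, 0.044 and 0.019), and the fit with the replicate number as a block gave 4437 higher and 3796 lower genes and moved no count of calls by over 1.5 times and changed no call of a named gene. With at least 10 counts in every library, 172 genes were called higher and 228 lower above 2.5-fold, against 274 and 405, and 7 regulators of imprinting fell, against 4. With scaling by total count 1 regulator rose and 9 fell, and 4 carboxypeptidase genes fell, against 2. With a flank of 500 kb, 17 flanking genes rose, against 25, and 8 fell, against 24, over a smaller set of genes. DESeq2 called 3891 genes higher and 3252 lower.

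Leaving out 1 library gave 3963 to 4852 genes called higher and 3161 to 4137 lower, and 272 to 294 higher and 395 to 547 lower above 2.5-fold. The calls were 19 to 22 higher and 7 to 10 lower for other imprinted genes, 2 higher and 3 to 5 lower for regulators, 5 to 6 higher and 2 lower for carboxypeptidases, 7 to 8 higher and 1 lower for the sarcoglycan list, and 24 to 29 higher and 18 to 27 lower for flanking genes. BEGAIN, at -0.002, changed sign to 0.021 with no filter, and ran from -0.12 without OV3/COX1KD replicate 1 to 0.13 without OV3/COX1KD replicate 2 and 0.20 without OV3/SCR replicate 3. ATP10A lost its call with DESeq2 (FDR 0.0234) and without OV3/COX1KD replicate 1 or 3 or OV3/SCR replicate 1 or 2 (FDR 0.0113 to 0.0329). AC058791.2 lost it with DESeq2 (FDR 0.0112) and without OV3/COX1KD replicate 1 or 3 or OV3/SCR replicate 1 (FDR 0.0118 to 0.0593), and TET3 without OV3/COX1KD replicate 2 or OV3/SCR replicate 1 or 3 (FDR 0.0165 to 0.041). With scaling by total count SRC lost its call (FDR 0.012), while CASD1 (FDR 0.00718) passed. The causes were not tested. Depth limits MEG3, NNAT and H19, with at most 64 counts in any library.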
